A study of Mus musculus with 12 samples.

Results

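The genes described here are 9 that carry the insulin signal from the cell surface to the FoxO transcription factors: Insr, Irs1, Irs2, Pdpk1, Akt1, Akt2, Foxo1, Foxo3 and Fcor. They were taken by gene symbol from a table of read counts for 38924 mouse genes, and all 9 were among the 14870 genes that passed a filter on low counts. The counts come from RNA sequencing of interscapular brown fat, the heat-producing fat depot between the shoulder blades. The mice were wild-type C57BL/6J, 14 weeks old, with no other allele or agent named, and 4 mice lived at each of 3 ambient temperatures for the last 4 weeks of life. Of these, 30 °C is thermoneutral for a mouse and serves as the reference, 22 °C stands for mild and 6 °C for severe cold. The comparisons ask which steps of the insulin pathway changed at the transcript level when the animals adapted to cold.

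Insulin binds its receptor, a tyrosine kinase that phosphorylates the insulin receptor substrates. The substrates recruit phosphoinositide 3-kinase, whose lipid product brings the AKT kinases to the membrane, where PDPK1 phosphorylates and activates them. Active AKT drives glucose uptake and phosphorylates FoxO factors, which then leave the nucleus, so that insulin lowers the transcription of FoxO target genes. Fcor encodes a small protein of adipocytes that binds FoxO1 and lowers its activity. The activity of these proteins is set largely by phosphorylation, which RNA counts do not measure.

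Library totals lay between 18290162 and 32513051 counts in 11 libraries, and 22 °C mouse 3 had 86438386. The 9 genes were well covered, with at least 192 counts for Irs2 and 216 for Fcor in the shallowest case. Of the 30 °C libraries, 2 carry only a column letter that points to this temperature, and mice A and B stand for them below. The 12 brown adipocyte markers were present in all 12 libraries, and their summed level was 10910 to 12780 CPM (read counts relative to library size, scaled by edgeR's trimmed mean of M-values, TMM) at 30 °C and 23220 to 25640 at 6 °C. At 6 °C against 30 °C 7 of the 12 rose, Adipoq fell and the others did not pass. In that comparison 25.3% of all tested genes rose and 31.5% fell. Mean levels went from 1469 CPM at 30 °C to 10440 at 6 °C for Ucp1 and from 5961 to 8876 for Fabp4. For Adipoq they went from 1068 to 621.3. Summed macrophage markers spanned 507.5 to 1613 CPM at 30 °C, 137.7 to 197.5 at 22 °C and 220.7 to 439.6 at 6 °C, with none of the 10 at 0 in all libraries. Of these markers, 8 of 10 fell at 6 °C against 30 °C, where 31.5% of all tested genes fell. So did 8 of 10 fibroblast markers (summed 2752 to 5237 CPM at 30 °C and 913.8 to 1138 at 6 °C). Of the endothelial markers 7 of 10 fell (1446 to 1747 and 1120 to 1182 CPM). Summed skeletal muscle markers were uneven within each temperature (867 to 4648 CPM at 30 °C, 858.3 to 3379 at 22 °C and 9.38 to 1701 at 6 °C), and none of the 10 passed a comparison. In whole tissue, fewer cells of a type and less RNA per cell cannot be told apart.

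The promoters of the genes differ in the transcription factor motifs they hold, and 3 are shown. Irs1 and Irs2 held the same words, at different spacings, and Fcor had the strongest temperature response. Sequences are the 250 bases before the start in the RefSeq promoter table (build GRCm38.p6), which held 13 windows for 8 of the 9 genes. The RefSeq start of Irs2 lies upstream of its GENCODE start. All 3 lie on the minus strand and are written 5′ to 3′, at chr1:82291440-82291689 for Irs1, chr8:11008930-11009179 for Irs2 and chr8:3672392-3672641 for Fcor. Capitals mark the E-box CACGTG and the word TTGTTTTG.
Irs1: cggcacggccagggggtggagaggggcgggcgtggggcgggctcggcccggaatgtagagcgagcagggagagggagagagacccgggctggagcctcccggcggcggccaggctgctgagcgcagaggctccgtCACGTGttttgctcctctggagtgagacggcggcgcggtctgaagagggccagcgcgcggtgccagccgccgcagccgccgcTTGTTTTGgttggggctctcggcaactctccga
Irs2: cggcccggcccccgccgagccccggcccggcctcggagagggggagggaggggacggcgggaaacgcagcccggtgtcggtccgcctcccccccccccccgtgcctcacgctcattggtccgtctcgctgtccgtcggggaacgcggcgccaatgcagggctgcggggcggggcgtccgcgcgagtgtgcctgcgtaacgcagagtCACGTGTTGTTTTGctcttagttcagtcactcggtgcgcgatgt
Fcor: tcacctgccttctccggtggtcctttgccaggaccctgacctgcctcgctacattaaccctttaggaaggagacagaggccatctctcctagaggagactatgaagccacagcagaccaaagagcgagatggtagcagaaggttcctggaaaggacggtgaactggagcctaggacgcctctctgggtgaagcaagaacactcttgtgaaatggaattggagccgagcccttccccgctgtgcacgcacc
The word TTGTTTTG is the reverse complement of CAAAACAA, the core of the insulin response element, to which FoxO factors bind. In Irs1 the E-box began 115 bases and the insulin response word 33 bases before the start. In Irs2 they began 44 and 38 bases before the start and directly adjoin each other. Searched on both strands over the full windows of 250 bases before to 50 after a start, the E-box occurred in 7.15% and the insulin response word in 2.51% of 32851 windows, and both together in 51 windows, or 0.155%. The other FoxO word searched, GTAAACA or its reverse complement TGTTTAC, was found in 1 window of Akt1, 161 bases before its start, against 3.65% of all windows. The cAMP response element TGACGTCA, held by 1.79% of all windows, was in none of the 13, and the Fcor window held none of the words.

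The insulin receptor transcript rose at 22 °C and again at 6 °C, Pdpk1 rose at 6 °C, Akt2 rose at both temperatures while Akt1 did not change detectably, Foxo3 fell at 6 °C, and Fcor was highest at 22 °C. Differences were tested by edgeR's quasi-likelihood method over the 12 libraries, p-values were adjusted (Benjamini-Hochberg) over all 14870 genes, and values under 0.05 count as changed. At 6 °C against 30 °C, 5 of the 9 genes changed, 4 higher and 1 lower, where 56.8% of all tested genes changed (25.3% higher and 31.5% lower). At 22 °C against 30 °C, 3 of the 9 changed, all higher, where 44.6% of all genes changed (21.8% higher and 22.8% lower). At 6 °C against 22 °C, 3 of the 9 changed, 2 higher and 1 lower, where 34.2% of all genes changed (16.9% higher and 17.4% lower). Over any of the 3 temperatures 5 of the 9 varied, beside 65.7% of all genes. These shares are near or below the background, so the count alone does not set the 9 genes apart. Their median log2 fold change was 0.41 at 6 °C against 30 °C, beside -0.11 for all tested genes, and 0.42 at 22 °C against 30 °C, beside -0.02. When libraries were scaled by their totals alone, the median of all genes shifted by a further -0.32 and -0.26 in these comparisons, and the changed genes split into 1939 higher and 7888 lower at 6 °C (3767 and 4677 with TMM). In that scaling they split into 1419 higher and 6224 lower at 22 °C, against 3248 and 3386 with TMM.

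**Figure D1:**
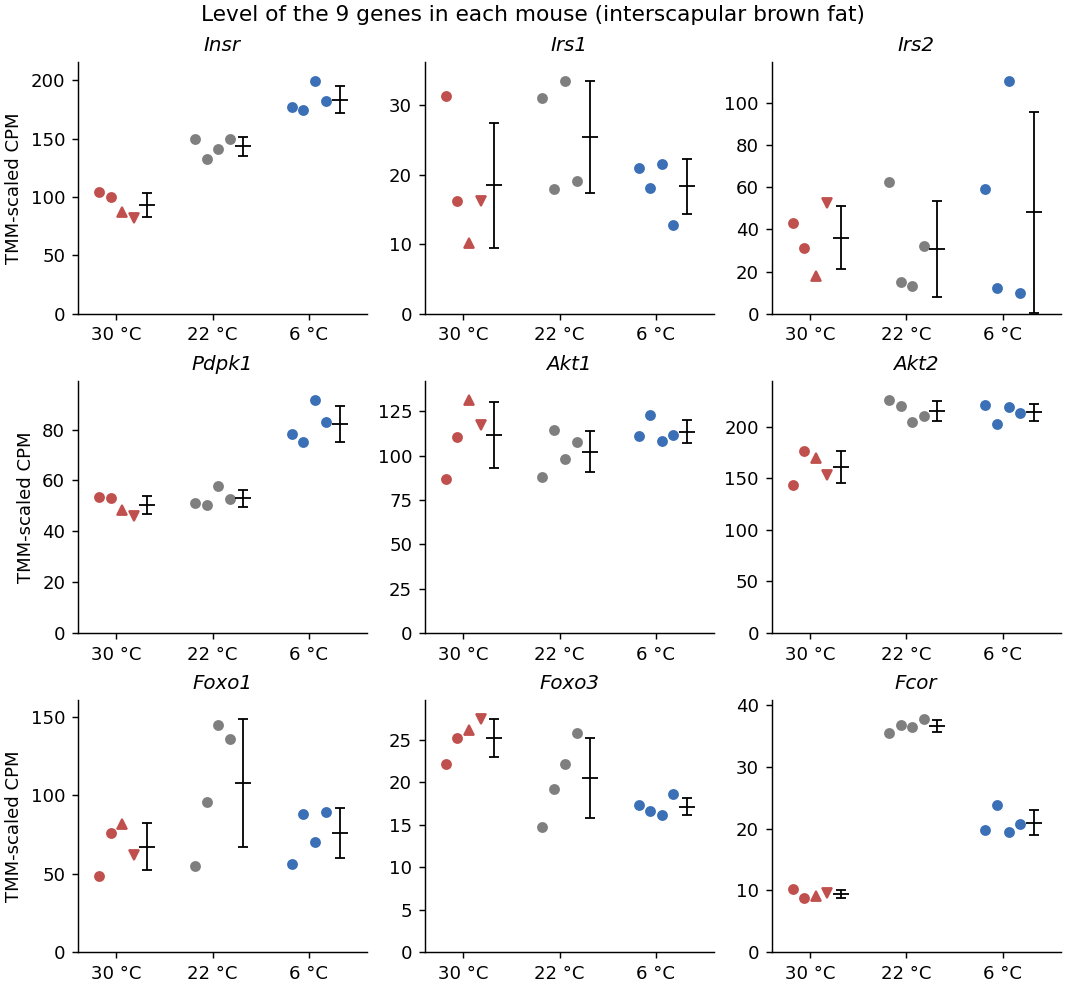
TMM-scaled CPM (linear axes from 0) of each gene in each of the 12 mice by temperature, with the mean and SD of 4 mice in black. Triangles mark 30 °C mice A and B. The ranges of Insr and Fcor do not overlap between any temperatures, and Irs2 spans 10.1 to 110.4 CPM within 6 °C.

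Insr, which encodes the insulin receptor (GRCm38 chromosome 8, 3122061 to 3279617, minus strand), rose at each step into the cold. Its level was 104.5, 99.8, 87.5 and 82.4 CPM in 30 °C mice 1, 2, A and B. It was 150.1, 132.9, 141.4 and 149.8 CPM in the 22 °C mice and 177.0, 174.4, 199.7 and 182.7 CPM in the 6 °C mice. Every mouse at 6 °C was above every mouse at 22 °C, and every mouse at 22 °C above every mouse at 30 °C. The log2 fold change was 0.97 (SE 0.085) at 6 °C against 30 °C, a 1.96-fold rise (edgeR adjusted p = 1.37e-06). It was 0.62 at 22 °C against 30 °C (adjusted p = 0.000121) and 0.35 at 6 °C against 22 °C (adjusted p = 0.00647). Both steps went the same way, and the test of their difference was not passed (difference of steps -0.26, SE 0.15, adjusted p = 0.192). The related receptor Igf1r, which binds insulin-like growth factors, was at 4.0 to 7.0 CPM in all mice and passed no comparison. Insrr, the third receptor of the family, had at most 12 counts in a library and was not tested.

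Irs1 and Irs2, the main docking proteins of the receptor (Irs1 on chromosome 1, 82233101 to 82291416, and Irs2 on chromosome 8, 10984681 to 11008458, both minus strand), did not pass any temperature comparison. Irs1 was at 31.3, 16.2, 10.2 and 16.3 CPM in 30 °C mice 1, 2, A and B, at 31.1, 17.9, 33.5 and 19.1 CPM at 22 °C, and at 20.9, 18.1, 21.6 and 12.8 CPM at 6 °C. The ranges of the 3 temperatures overlapped. At 22 °C against 30 °C its log2 fold change was 0.47 (SE 0.33, adjusted p = 0.283). Without 30 °C mouse 1 it was 0.85 and passed (adjusted p = 0.0287), as did the difference of the steps (-1.32, adjusted p = 0.0422, against -0.94 and 0.239 with all mice). That library held 4648 CPM of summed muscle markers against 867 to 1416 in the other 30 °C libraries, and the part of muscle RNA in the result was not tested. The gene shares 30.9% of its exon bases with Gm9747 on the other strand, which was counted at 0 in all libraries, and whether the counting used strand is not given in the sources used here.

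Irs2 varied widely between mice of the same temperature, and at 22 °C and 6 °C more than any other of the 9 genes. It stood at 43.0, 31.2, 17.7 and 52.3 CPM in 30 °C mice 1, 2, A and B, at 62.5, 15.2, 13.4 and 32.2 CPM in the 22 °C mice, and at 59.2, 12.3, 110.4 and 10.1 CPM in the 6 °C mice. The highest mouse exceeded the lowest 2.95-fold at 30 °C, 4.68-fold at 22 °C and 10.96-fold at 6 °C. Of the 4 mice at 6 °C, mice 1 and 3 were high, and the others lay below every mouse at 30 °C. At 6 °C against 30 °C the log2 fold change of Irs2 was 0.42 with an SE of 0.79 (adjusted p = 0.672), so a change of the size seen for Insr was not detectable for Irs2 at this spread. Among the other substrates, Irs3 was at 24.9 to 61.0 CPM and passed no comparison, and Irs4 had 3 counts in all libraries together.

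Pdpk1, which encodes the kinase that phosphorylates the activation loop of AKT (chromosome 17, 24073680 to 24150924, minus strand), rose at 6 °C and was not detectably changed at 22 °C. Its level was 53.3, 52.9, 48.4 and 46.2 CPM in 30 °C mice 1, 2, A and B and 50.96, 50.3, 57.9 and 52.6 CPM in the 22 °C mice. In the 6 °C mice it was 78.3, 75.3, 91.7 and 83.1 CPM. The 30 °C and 22 °C mice overlapped, and all mice at 6 °C lay above both groups. The log2 fold change was 0.71 (SE 0.080, 1.64-fold, adjusted p = 9.69e-06) at 6 °C against 30 °C and 0.63 against 22 °C (adjusted p = 0.000116). At 22 °C against 30 °C it was 0.08 (SE 0.079, adjusted p = 0.456). The steps differed, with a larger rise from 22 to 6 °C than from 30 to 22 °C (difference 0.55, SE 0.14, adjusted p = 0.0101), a test that 29.3% of all genes passed.

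Of the AKT kinases, Akt2 rose and Akt1 did not pass a comparison. Akt2 is the isoform most tied to insulin-stimulated glucose uptake (chromosome 7, 27591552 to 27640826, plus strand), and Akt1 is the isoform most tied to growth (chromosome 12, 112653821 to 112674884, minus strand). Akt2 was at 143.5, 176.9, 169.6 and 153.0 CPM in 30 °C mice 1, 2, A and B, at 226.1, 220.5, 204.1 and 210.1 CPM at 22 °C and at 220.7, 202.3, 219.3 and 213.7 CPM at 6 °C. All 8 mice in the cold lay above all 4 at 30 °C, and the 22 °C and 6 °C mice overlapped. The log2 fold change was 0.42 (SE 0.076, 1.34-fold, adjusted p = 0.000705) at 22 °C against 30 °C and 0.41 (SE 0.076, adjusted p = 0.000509) at 6 °C against 30 °C. Between 6 °C and 22 °C it was -0.01 (SE 0.076, adjusted p = 0.949). The steps differed (difference -0.43, SE 0.13, adjusted p = 0.0257), a test that 29.3% of all genes passed. This call was lost in 6 of the alternatives run. Under total-count scaling both rises were lost (0.16, adjusted p = 0.0661, and 0.10, adjusted p = 0.221). The pseudogene Akt2-ps held at most 0.613% as many counts as Akt2 in any library.

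Akt1 was at 87.0, 110.7, 131.6 and 117.4 CPM in 30 °C mice 1, 2, A and B, at 88.3, 114.8, 98.2 and 107.6 CPM at 22 °C and at 111.3, 123.1, 108.3 and 111.7 CPM at 6 °C. The 3 groups overlapped. Akt1 stood at a log2 fold change of 0.02 (SE 0.12, adjusted p = 0.869) at 6 °C against 30 °C and -0.13 (SE 0.12, adjusted p = 0.394) at 22 °C against 30 °C. Under total-count scaling Akt1 was called lower in both (-0.29, adjusted p = 0.0485, and -0.39, adjusted p = 0.0167), beside the shift of the median of all genes given above.

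**Figure D2:**
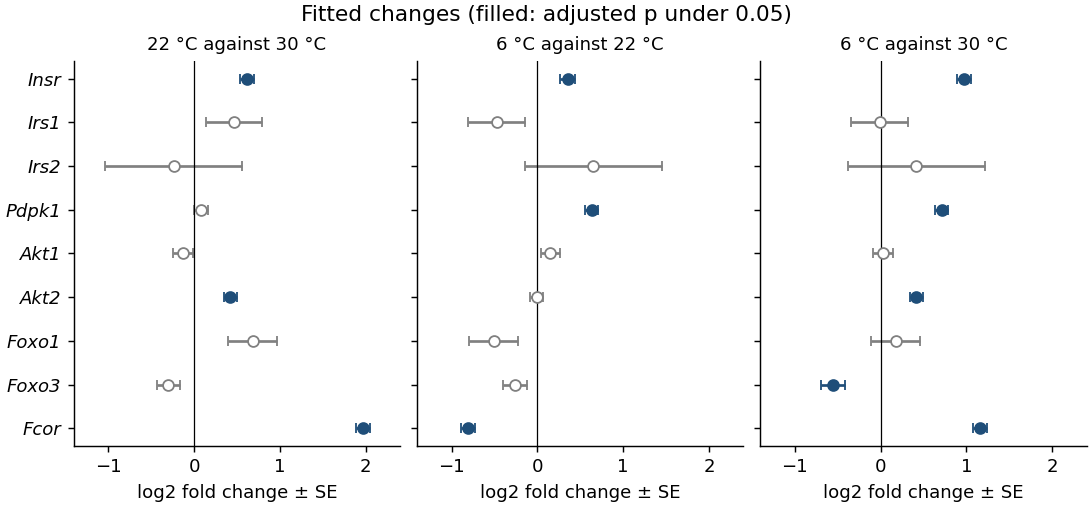
Log2 fold change with its SE for each gene in the 3 pairwise comparisons, from the fit to all 12 libraries. Filled points passed an adjusted p under 0.05; Fcor stands at 1.96 for 22 °C against 30 °C and at -0.81 for 6 °C against 22 °C, while Pdpk1 stands at 0.08 and 0.63.

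The FoxO factors, which AKT keeps out of the nucleus, differed from each other. Foxo1, the main FoxO factor of insulin-responsive tissues (chromosome 3, 52268336 to 52353221, plus strand), was at 48.5, 76.0, 81.9 and 62.0 CPM in 30 °C mice 1, 2, A and B. It was at 55.1, 95.6, 144.4 and 135.5 CPM in the 22 °C mice and at 56.3, 87.9, 69.96 and 89.1 CPM in the 6 °C mice. At 22 °C, 3 of 4 mice lay above every mouse at 30 °C and mouse 1 lay near the bottom of that range. Its log2 fold change of 0.68 (SE 0.28) at 22 °C against 30 °C did not pass with edgeR's quasi-likelihood test (adjusted p = 0.0731). It passed with DESeq2 (0.71, adjusted p = 0.0160) and without 22 °C mouse 1 (0.90, adjusted p = 0.00679). At 6 °C against 30 °C it was 0.18 (SE 0.28, adjusted p = 0.618).

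Foxo3 (chromosome 10, 42181841 to 42276755, minus strand), which encodes a related factor that drives genes of stress resistance and protein breakdown, fell at 6 °C. It was at 22.2, 25.2, 26.1 and 27.5 CPM in 30 °C mice 1, 2, A and B, at 14.7, 19.3, 22.1 and 25.9 CPM at 22 °C, and at 17.3, 16.6, 16.1 and 18.6 CPM at 6 °C. All mice at 6 °C lay below all mice at 30 °C, and the 22 °C mice overlapped both groups. At 22 °C against 30 °C Foxo3 had a log2 fold change of -0.30 (SE 0.14) and did not pass (adjusted p = 0.0963). Under total-count scaling it was called lower there (-0.56, adjusted p = 0.00891), beside the shift of the median of all genes given above. The log2 fold change at 6 °C against 30 °C was -0.56 (SE 0.14, adjusted p = 0.00403), and without 30 °C mice A and B it was -0.46 and did not pass (adjusted p = 0.0549). The difference of the steps did not pass (0.04, SE 0.24, adjusted p = 0.925). Those libraries also had the highest summed macrophage markers, 1301 and 1613 CPM against 507.5 and 516.8 in 30 °C mice 1 and 2, and the part of these cells in the result was not tested. Foxo4 was at 70.9 to 73.7 CPM at 6 °C and 75.9 to 95.3 CPM at 22 °C and fell between them (log2 fold change -0.26, SE 0.076, adjusted p = 0.0200), and Foxo6 was at 1.22 CPM or less in every mouse.

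Fcor, the FoxO1 corepressor (chromosome 8, 3671188 to 3672362, minus strand), changed most of the 9 genes and peaked at 22 °C. Its level was 10.2, 8.68, 9.08 and 9.61 CPM in 30 °C mice 1, 2, A and B, 35.5, 36.9, 36.5 and 37.8 CPM in the 22 °C mice, and 19.8, 23.8, 19.4 and 20.8 CPM in the 6 °C mice. The ranges of the 3 groups were apart, and the 22 °C mice differed by at most 1.06-fold among themselves. The log2 fold change was 1.96 (SE 0.084, 3.9-fold, adjusted p = 5.98e-08) at 22 °C against 30 °C, where its p was the smallest of all 14870 genes tested. It was 1.16 (SE 0.083, 2.23-fold, adjusted p = 2.99e-07) at 6 °C against 30 °C. From 22 to 6 °C Fcor fell by 0.81 on the log2 scale (SE 0.081, adjusted p = 2.27e-05). The difference of the steps, -2.77 (SE 0.13, adjusted p = 3.30e-07), also had the smallest p of all genes. These calls held under every alternative scaling, filter, tool and left-out library that was run.

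Scaled to exon length, the order of the levels changed with temperature. In RPKM (TMM-scaled CPM per kilobase of exon), Akt1 at 27.3 ± 4.53 (SD, n = 4), Fcor at 23.9 ± 1.64 and Akt2 at 22.5 ± 2.14 led at 30 °C with overlapping ranges. At 22 °C Fcor led at 93.5 ± 2.39 RPKM, above Akt2 at 30.2 ± 1.39 and Akt1 at 24.9 ± 2.81, with no overlap between these 3. At 6 °C Fcor was at 53.5 ± 5.09 RPKM, followed by Akt2 at 30.0 ± 1.17 and Akt1 at 27.7 ± 1.60, whose ranges overlapped. The exons of Fcor span 392 bases, so its level per kilobase is high although it had the lowest CPM of the 9 genes at 30 °C. Insr passed from 6.81 ± 0.753 RPKM, within the range of Foxo1 at 7.75 ± 1.73, at 30 °C to 13.3 ± 0.828 RPKM at 6 °C, above all mice for Foxo1 at 8.75 ± 1.81. Foxo3 and Irs1 were the lowest at each temperature, between 2.00 and 3.34 RPKM on average, and their ranges overlapped each time.

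Ratios of paired genes within a mouse do not depend on the scaling between libraries. They are given as log2 ratios of counts per exon base with 0.5 added to each count. The Akt2 to Akt1 ratio was -0.08, -0.12, -0.43 and -0.42 in 30 °C mice 1, 2, A and B, and 0.56, 0.14, 0.26 and 0.17 in the 22 °C mice. At 6 °C it was 0.19, -0.08, 0.22 and 0.14. Per exon base, Akt1 exceeded Akt2 in all 4 mice at 30 °C, and Akt2 exceeded Akt1 in all 4 at 22 °C and in 3 of 4 at 6 °C. In CPM, Akt2 was above Akt1 in every mouse at every temperature. The sign of this ratio therefore rests on the exon lengths used, 4098 bases for Akt1 and 7131 for Akt2. Its difference between temperatures does not. The difference was 0.54 at 22 °C against 30 °C (two-sided exact permutation p = 0.0286, adjusted p = 0.0686 over 12 comparisons). It was 0.38 at 6 °C against 30 °C, where the groups overlapped (exact permutation p = 0.0571).

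The Foxo1 to Foxo3 ratio was higher in every mouse in the cold than in every mouse at 30 °C. It spanned 0.93 to 1.45 at 30 °C, 1.71 to 2.51 at 22 °C and 1.51 to 2.21 at 6 °C, on the same log2 scale. The differences from 30 °C were 0.94 at 22 °C and 0.73 at 6 °C (exact permutation p = 0.0286 and adjusted p = 0.0686 for each). The Fcor to Foxo1 ratio spanned 1.30 to 2.21 at 30 °C, 2.48 to 3.83 at 22 °C and 2.37 to 2.96 at 6 °C. Its differences from 30 °C were 1.35 and 0.98, with the same exact p and adjusted p. The value 0.0286 is the smallest that 4 mice against 4 can give, and none of the 12 comparisons passed after adjustment. The Irs2 to Irs1 ratio overlapped between all temperatures, from -0.80 to 2.89.

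**Figure D3:**
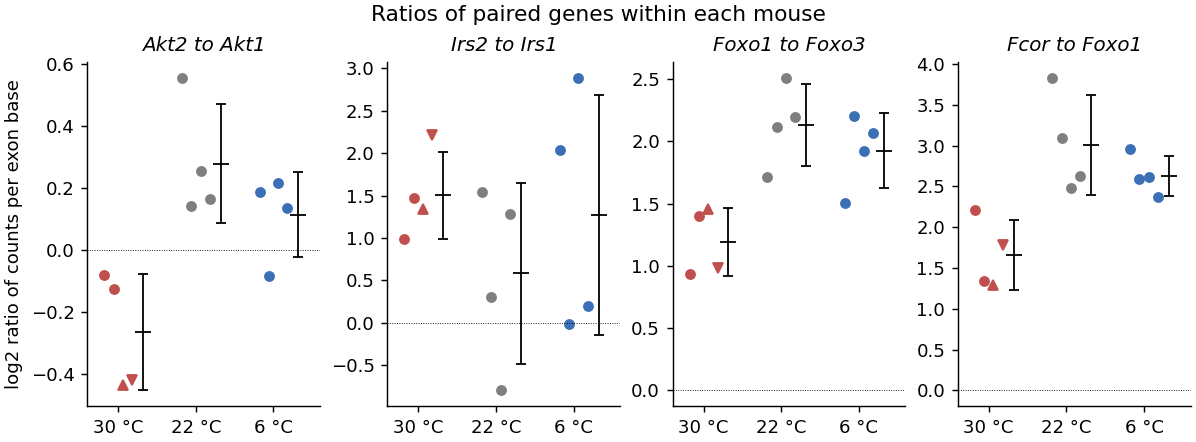
Log2 ratio of counts per exon base for 4 pairs of genes in each mouse, with the mean and SD of 4 mice in black. Triangles mark 30 °C mice A and B, and the dotted line marks equal counts per exon base. The axes do not share a range and start at different values. Akt2 to Akt1 lies below 0 in all mice at 30 °C and above 0 in all mice at 22 °C.

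Around the 9 genes, the rest of the pathway moved in both directions. Of 46 other genes of the insulin, PI3K and AKT pathway, 44 were tested. At 6 °C against 30 °C 15 rose and 8 fell, with a median log2 fold change of 0.08 beside -0.11 for all genes, and 56.8% of all genes changed. At 22 °C against 30 °C 14 rose and 8 fell, with a median of 0.12 beside -0.02 for all genes, of which 44.6% changed (21.8% higher and 22.8% lower). Slc2a4, the insulin-regulated glucose transporter to whose translocation Akt2 is coupled, rose at both cold temperatures. It spanned 273.8 to 447.5 CPM at 30 °C, 487.0 to 673.0 CPM at 22 °C (log2 fold change 0.64, SE 0.16, adjusted p = 0.00483) and 511.3 to 686.7 CPM at 6 °C (0.76, SE 0.16, adjusted p = 0.00121). Mtor, the kinase of the complexes that act above and below AKT, rose at each step (log2 fold changes 0.81 and 1.18). Sh2b2, an adaptor of the insulin receptor, rose with Insr (0.73 and 0.61). The AKT substrates Tsc2 (0.41) and Akt1s1 (0.51) rose at 22 °C against 30 °C, and both rose at 6 °C against 30 °C (0.54 each). Gab1, another docking protein, fell at 6 °C against 30 °C (-0.79, SE 0.11, adjusted p = 7.85e-05).

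Pik3r1, which encodes the regulatory subunits that hold phosphoinositide 3-kinase to the receptor substrates, had its highest mean at 22 °C. It was at 181.7, 180.0, 218.7 and 87.8 CPM in 30 °C mice 1, 2, A and B, at 203.3, 412.9, 587.7 and 190.7 CPM in the 22 °C mice and at 56.1, 97.3, 62.2 and 115.5 CPM in the 6 °C mice. Every mouse at 22 °C lay above every mouse at 6 °C, and the 30 °C mice overlapped both. It fell from 22 to 6 °C by 2.08 on the log2 scale (SE 0.43, adjusted p = 0.00481), and the steps differed (-3.14, SE 0.69, adjusted p = 0.00771). Neither 22 °C against 30 °C (1.06, SE 0.42, adjusted p = 0.0623) nor 6 °C against 30 °C (-1.01, SE 0.42, adjusted p = 0.0612) passed. Pik3ca, a catalytic subunit, rose by 0.23 at 6 °C against 30 °C (SE 0.066, adjusted p = 0.00860).

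Of 24 other FoxO family members and regulators, all tested, 6 rose and 3 fell at 6 °C against 30 °C, and 5 rose and 7 fell at 22 °C against 30 °C, beside 56.8% and 44.6% of all genes changed. The 14-3-3 proteins, which hold phosphorylated FoxO in the cytoplasm, did not move as 1 group. At 22 °C against 30 °C Ywhab and Ywhag rose (0.39 and 0.28, adjusted p = 0.00151 and 0.0318). Ywhaz fell in the same comparison (-0.58, SE 0.089, adjusted p = 0.000257). At 6 °C against 30 °C Ywhab and Ywhag rose (0.63 and 0.62), and Ywhaz did not pass (-0.19, adjusted p = 0.0806). Of 34 known FoxO target genes 32 were tested, 13 rose and 6 fell at 6 °C against 30 °C, with a median of 0.11 beside -0.11 for all genes. At 22 °C against 30 °C 6 rose and 5 fell of the 32, beside 44.6% of all genes changed, with a median of 0.10 beside -0.02. The antioxidant genes Cat (0.82) and Sod2 (0.88) and the autophagy gene Map1lc3b (0.46) rose at 6 °C, and Cdkn1b, an inhibitor of the cell cycle, fell (-0.60). Eif4ebp1, a repressor of cap-dependent translation, had a profile with its highest level at 22 °C (0.98 at 22 °C against 30 °C, then -0.72 from 22 to 6 °C). At 6 °C against 30 °C, 23 of 44 pathway genes, 9 of 24 FoxO regulators and 19 of 32 targets changed, where 56.8% of all genes did.

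**Figure D4:**
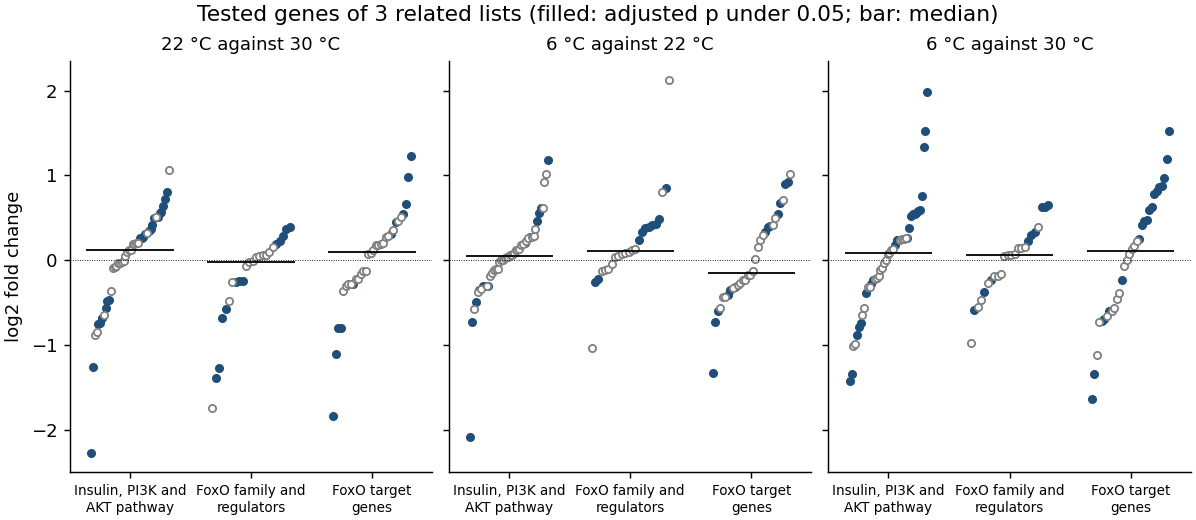
Log2 fold change of every tested gene of the 3 lists in each comparison, ordered by size within a list. Filled points passed an adjusted p under 0.05 and bars mark medians, which lie between -0.15 and 0.12 in all 9 combinations of list and comparison.

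The genes whose levels over the 12 libraries were most like each of the 9 were found by the root-mean-square difference of centred log2 CPM, among named genes whose mean reached 5 CPM. Insr was followed most closely by Slc25a15 (0.061), which encodes a mitochondrial ornithine carrier, then Tmem106b and Ghitm. Pdpk1 was followed by Lmbrd1 (0.063), Nek7 and Kif16b, and Akt2 by Eral1 (0.063), Mtfr1l and Mettl9. For Foxo3 the nearest was Ankrd12 (0.099). Nearest to Fcor was Ppp1r1a, which encodes a phosphatase inhibitor regulated by protein kinase A, at 0.227, then Dbi at 0.268 and Tst at 0.273. Klf11 was nearest to Irs2 at 0.639 and Myo5c to Irs1 at 0.308. Vps9d1 was nearest to Akt1 at 0.080 and Klf9 to Foxo1 at 0.239. The measure grows with the spread of a gene's own level over the libraries, so it does not rank the genes by isolation. That spread was 1.06 for Irs2, 0.809 for Fcor, 0.497 for Irs1, 0.470 for Foxo1 and 0.416 for Insr. It was 0.330 for Pdpk1, 0.296 for Foxo3, 0.214 for Akt2 and 0.169 for Akt1. These are descriptions of the 12 libraries, in which the genes share depth and scaling.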

How the data were processed

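Values are whole read counts per mouse gene, which the authors deposited without normalisation. Per the submitters' processing notes, FastQC 0.10.1, STAR 2.4.2a and edgeR 3.14.0 were used, with GRCm38 and mm10 as builds. How reads were assigned to genes, and whether by strand, is not given in the sources used here. Titles matched 10 columns, and 2 columns (30 °C mice A and B) were assigned by the letter of their names alone. Whether they are among the 30 °C mice of the labels is not known.

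Counts were analysed in R 4.3.3 with edgeR 4.0.16: filterByExpr by temperature, TMM scaling, glmQLFit (robust) on the 12 libraries and two-sided glmQLFTest, adjusted by Benjamini-Hochberg over 14870 genes. The method was tested on simulated data. Each SE is the fitted log2 change over the root of its F statistic. Positions and exon lengths are from GENCODE for GRCm38. Ratios were compared by exact permutation tests, adjusted over 12. No library was a copy of another (chi-square over its degrees of freedom was 20.9 or more between libraries of 1 temperature). Whether mouse numbers pair libraries was not settled. Of 8 same-number pairs 4 had a correlation of deviations over 0.1 (-0.04 to 0.35), and pairs with different numbers spanned -0.43 to 0.43. The deviations of 30 °C mice 1 and 2, the only matched ones at that temperature, mirror each other, so these correlations cannot decide it.

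The 9 genes and the lists were chosen with earlier results of these data known. Other genes are named as fixed relatives, as the 5 genes of each list with the smallest p for any temperature and a mean of at least 1 CPM, or by likeness. Slc2a4 and Pik3r1 are such relatives, and some of the genes so named are not reported here. Alternatives were other scalings, no filter, non-robust fitting, limma voom (limma 3.58.1), DESeq2 1.42.0, the mouse number as a block, only the 2 groups compared, leaving out each library or mice A and B, a ratio pseudocount of 5 and, chosen after seeing the data, thinning the deepest library.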

Additional observations from a re-analysis of the deposited data

How the results depend on the processing

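Over 819 comparisons of a log2 fold change of the 9 genes with an alternative, 761 kept their direction and their side of the threshold, 9 lost the call, 12 gained one in the same direction and 37 changed sign, of which Akt1 at 6 °C against 30 °C with total counts then passed. All sign changes were of values given in the report as not passing the test. The calls of Insr, Fcor and Pdpk1 held in every alternative run. With the mouse number as a replicate block (10 libraries) the genes changed numbered 3245 at 22 °C against 30 °C and 2468 for the difference of the steps. The same 10 libraries without the block gave 4454 and 3376, and all 12 gave 6634 and 4353. In that block Irs2 at 6 °C against 30 °C was -0.27, Pdpk1 -0.0873 and Akt1 0.0649 at 22 °C against 30 °C, and Akt2 0.00725 at 6 °C against 22 °C. Irs1 passed at 6 °C against 22 °C in that block (-0.43, SE 0.13, adjusted p = 0.0368) and not without it. Irs1 at 6 °C against 30 °C was 0.0453 with RLE scaling, 0.00395 with no filter, 0.11 with voom, 0.0428 with DESeq2 and 0.0334 in the 2 groups alone; Irs2 was -0.10 with voom. With total counts Akt1 was -0.29 and Foxo1 -0.14 at 6 °C against 30 °C, and Pdpk1 -0.18 at 22 °C against 30 °C; with upper quartile scaling Akt1 was -0.0395 at 6 °C. Akt2 at 6 °C against 22 °C was 0.0204 with RLE and 0.0208 with DESeq2. Without mice A and B, Pdpk1 was -0.00577 and Akt1 0.0442 at 22 °C against 30 °C, Akt2 0.00606 at 6 °C against 22 °C, Foxo3 -0.0383 for the difference of the steps, and the Irs2 to Irs1 ratio 0.0416 at 6 °C against 30 °C. Leaving out 1 library gave, at 6 °C against 30 °C, -0.21 to 0.37 for Irs1, -0.40 to 0.76 for Irs2, -0.0776 to 0.11 for Akt1 and -0.77 to 0.20 for the Irs2 to Irs1 ratio. It gave -0.84 to 0.02 for Irs2 at 22 °C against 30 °C, -0.17 to 1.26 for Irs2 and -0.0213 to 0.0200 for Akt2 at 6 °C against 22 °C, and -0.22 to 0.29 for Foxo3 in the difference of the steps. The difference of the steps of Akt2, -0.43 (SE 0.13, adjusted p = 0.0257), lost its call in 6 alternatives (highest adjusted p = 0.176). Foxo3 passed at 22 °C against 30 °C without 22 °C mouse 4 (-0.43, adjusted p = 0.0196) and with total counts (-0.56, adjusted p = 0.00891). Foxo1 and Foxo3 passed at 6 °C against 22 °C without 22 °C mouse 1 (-0.73 and -0.39, adjusted p = 0.0267 and 0.0186). The cause of these changes was not tested. The 9 genes had at least 192 counts in each library, and thinning the deepest library changed none of their calls.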

Other observations

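Covariation of the 9 genes between mice of the same temperature was examined after seeing the data. Deviations of log2 CPM from the mean of the temperature were compared for 36 pairs over 12 mice, with 100000 permutations within temperatures. For Pearson's r, Akt2 and Fcor passed after adjustment (r = -0.80, permutation p = 0.00108, adjusted p = 0.0389). Their Spearman rho of -0.83 did not (permutation p = 0.00531, adjusted p = 0.0782), and r was -0.71 without the 2 mice farthest from the median of Akt2 but -0.41 with total counts as the scaling. In 5 other pairs r had an unadjusted permutation p under 0.05, and none passed (adjusted p = 0.162 each). They were Irs1 and Akt1 (r = -0.86, rho = -0.81, permutation p = 0.00902 and 0.0109), Foxo1 and Foxo3 (0.82 and 0.78, permutation p = 0.0170 and 0.0184), and Insr and Pdpk1 (0.74 and 0.76, permutation p = 0.0228 and 0.0105). The others were Irs2 and Foxo1 (-0.65 and -0.75, permutation p = 0.0239 and 0.00774) and Insr and Akt1 (-0.73 and -0.78, permutation p = 0.0269 and 0.00843). Adjusted p for rho was 0.0782, except 0.111 for Foxo1 and Foxo3. Without the 2 farthest mice these 5 r values were, in the same order, -0.65, 0.53, 0.65, -0.74 and -0.65.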
